A study of Rattus norvegicus with 27 samples.

Results

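The genes described here were 45 genes of cell division and DNA replication, followed in primary rat oligodendrocyte precursor cells (OPCs) after the growth factor PDGF was taken away. They were chosen by symbol from a list of replication, S phase entry and mitosis genes, by a rule that uses no value on the arrays, although earlier results of these data were known when the list was made. Each was read from the probe set that carried its symbol alone, and from the brightest where a gene had more than 1. By this rule 41 of the 45 genes were measured, among 14218 genes in all, and no value is given for Cdc6, Gins2, Rrm2 and Tpx2. The measured genes fell into 6 roles: 8 genes of origin licensing and the replicative helicase, 7 of DNA synthesis and nucleotide supply, 4 of entry into S phase, 8 mitotic cyclins and kinases, 8 of the spindle checkpoint and chromosomes, and 6 of spindle motors and cytokinesis. The first pair of roles is called replication genes here (15 genes) and the last 3 roles are called mitosis genes (22 genes). The 4 genes called entry genes were Ccne1, Ccne2 and the transcription factors E2f1 and Foxm1, although Foxm1 acts on mitotic genes.

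The series held 27 arrays in 9 groups of 3, 1 array from each of donors 1, 2 and 3 in every group. One group was OPCs kept in PDGF, taken at 0 h. The other 8 groups were cells given thyroid hormone (T3), which drives OPCs to mature into oligodendrocytes, or T3 together with the cytokine interferon gamma (IFNγ), and taken at 8, 24, 48 or 96 h. PDGF arrays existed for 0 h alone, so in every comparison with PDGF the loss of PDGF, the addition of T3 and the time in culture cannot be told apart, and all of these comparisons share the same 3 PDGF arrays. The labels name the donor of each array. The methods describe OPCs selected from postnatal rat cortex with magnetic beads against A2B5, then expanded in PDGF and assayed in independent biological replicates. The values were log2 signals from RMA, so a difference of 1 is a 2-fold difference, and a gene was called when its limma adjusted p was below 0.05 over all 14218 genes.

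A dividing cell first loads the MCM helicase on its origins with Cdt1, then copies its DNA once cyclin E and E2F have opened S phase, and later builds the spindle under cyclin A, cyclin B, Cdk1, Plk1 and the Aurora kinases. Replication genes and mitosis genes are transcribed as separate waves, the first through E2F sites and the second largely through a promoter element called the CHR, which lies close to CCAAT boxes and is read by the DREAM and MuvB-FOXM1 complexes. PDGF is the classical mitogen of OPCs, and its withdrawal lets them leave the cycle and differentiate.

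Promoters of 4 of the genes are printed because replication genes and mitosis genes moved at different times and their promoters held different motifs. RefSeq (assembly GRCr8) gave a promoter for 35 of the 41 measured genes, from 250 bases before to 50 bases after the start. The motifs searched on both strands were the CHR core TTTGAA, the CCAAT box, and the E2F words TTTCCCGC, TTTCGCGC, TTTGCCGC and TTTGGCGC. Capitals mark every match, and a match on the opposite strand is read as its reverse complement, so that CCAAT appears as ATTGG. Mcm3 and Mcm7 are subunits of the replicative helicase. Plk1 is the polo kinase of mitotic entry, and Cdc20 activates the anaphase-promoting complex.
Mcm3 (chr9:30733697-30733996, minus strand): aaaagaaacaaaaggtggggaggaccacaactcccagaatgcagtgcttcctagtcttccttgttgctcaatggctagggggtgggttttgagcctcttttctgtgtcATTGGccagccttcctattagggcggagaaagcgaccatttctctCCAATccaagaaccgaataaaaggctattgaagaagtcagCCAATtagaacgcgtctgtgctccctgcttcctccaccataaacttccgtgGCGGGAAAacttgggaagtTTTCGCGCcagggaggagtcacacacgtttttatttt
Mcm7 (chr12:22163129-22163428, minus strand): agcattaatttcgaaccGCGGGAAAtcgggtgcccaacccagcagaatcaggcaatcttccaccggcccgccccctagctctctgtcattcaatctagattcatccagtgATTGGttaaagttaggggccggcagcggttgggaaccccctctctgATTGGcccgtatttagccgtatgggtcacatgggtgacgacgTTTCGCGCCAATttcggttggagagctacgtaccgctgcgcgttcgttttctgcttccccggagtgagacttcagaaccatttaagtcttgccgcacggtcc
Plk1 (chr1:186147408-186147707, plus strand): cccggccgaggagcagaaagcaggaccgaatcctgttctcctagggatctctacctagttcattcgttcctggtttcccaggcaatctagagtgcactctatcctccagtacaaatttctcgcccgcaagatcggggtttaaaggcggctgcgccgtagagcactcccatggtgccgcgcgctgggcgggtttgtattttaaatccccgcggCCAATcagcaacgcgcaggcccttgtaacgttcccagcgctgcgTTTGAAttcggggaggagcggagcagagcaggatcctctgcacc
Cdc20 (chr5:137255750-137256049, minus strand): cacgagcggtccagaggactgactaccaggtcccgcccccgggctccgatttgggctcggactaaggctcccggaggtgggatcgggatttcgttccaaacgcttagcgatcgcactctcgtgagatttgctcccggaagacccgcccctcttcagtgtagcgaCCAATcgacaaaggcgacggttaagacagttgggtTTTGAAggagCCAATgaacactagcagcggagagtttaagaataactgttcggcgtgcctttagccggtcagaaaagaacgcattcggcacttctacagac
Mcm3 and Mcm7 held E2F words and CCAAT boxes and no CHR core. In Mcm7 the downstream E2F word and a CCAAT box shared a C. Plk1 and Cdc20 held a CHR core and CCAAT boxes and no E2F word. The CHR core was found in 14 of 20 mitosis promoters (70.0%) and in 1 of 14 replication promoters (7.14%), that of Mcm2, against 12.3% of 11734 promoters of tested genes and 18.1% of all 27457 promoters in the table. An E2F word stood in 9 of the 14 replication promoters (64.3%) and in 1 mitosis promoter (5.0%), that of Cdk1, against 3.64% of tested genes and 2.25% of all. CCAAT was found in 80.0% of mitosis promoters, 64.3% of replication promoters, 37.3% of tested genes and 37.7% of all. A CHR core together with CCAAT was found in 13 mitosis promoters (65.0%) and no replication promoter, against 5.02% of tested genes. These are matches of letters in a window and not measured binding sites.

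All arrays had much the same overall level, with medians of 5.95 to 6.03. Of the markers of the labelled cell type, 6 of 6 OPC genes lay above the median of all values (5.99) in every group, with the PDGF receptor gene Pdgfra at 12.7 in PDGF. In PDGF 9 of 12 microglia, 5 of 8 astrocyte (Slc1a3 at 12.2), 5 of 7 neuron and 1 of 9 vascular and fibroblast markers lay above it as well, so that this level alone does not single out OPCs. The median of 5 mature oligodendrocyte markers was 5.0 in PDGF, 12.9 at 96 h of T3 and 10.8 at 96 h of T3+IFNγ. In PDGF all 41 genes had a mean above the median of all values. At 96 h of T3 17 of them had a mean below it, and none had a mean below the lower quartile of 4.48.

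At 8 h after the change to T3 4 genes had fallen, all of them replication or entry genes, while no mitosis gene was called. Cyclin E1 (Ccne1), which drives entry into S phase, read 8.60, 8.92 and 8.96 in donors 1, 2 and 3 in PDGF and 7.06, 8.21 and 8.26 at 8 h. Every 8 h value lay below every PDGF value, and the difference was largest in donor 1. The helicase subunit Mcm3 went from 9.65, 9.999 and 9.86 to 8.14, 9.27 and 9.23, and Mcm7 from 11.80, 11.97 and 11.93 to 11.06, 11.56 and 11.46, again with no overlap. Of the 41 genes 4 were called lower at 8 h, and 5.37% of all genes were called lower in the same comparison. They were Ccne1 with −0.99 (SE 0.25, adjusted p = 0.0134), Ccne2 with −0.75 (SE 0.20, adjusted p = 0.0182), Mcm3 with −0.96 (SE 0.28, adjusted p = 0.0269) and Mcm7 with −0.54 (SE 0.18, adjusted p = 0.0471). None of the 41 was called higher, against 7.31% of all genes.

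The other licensing and entry genes did not pass the test at 8 h. Cdt1, which loads the helicase, was at 7.72, 9.45 and 9.70 against 9.98, 10.10 and 10.22 in PDGF, a change of −1.14 (SE 0.43, adjusted p = 0.0882) in which donor 1 differed by −2.26 and donors 2 and 3 by −0.65 and −0.52. Mcm2 changed by −0.98 (adjusted p = 0.0611), the transcription factor E2f1 by −0.96 (adjusted p = 0.0513) and Mcm5 by −0.86 (adjusted p = 0.0523). Foxm1, the transcription factor of the mitotic genes, changed by −0.32 (adjusted p = 0.515). The median change was −0.91 over the 8 licensing and helicase genes, −0.44 over the 7 synthesis genes, −0.86 over the 4 entry genes and +0.10 over the 22 mitosis genes, while the median of all genes lay within 0.05 of 0. In all 3 donors 13 of 15 replication genes and 4 of 4 entry genes were lower and none was higher, whereas 12 of 22 mitosis genes were higher in all 3 donors and 2 were lower. Over all genes 3399 were lower and 3807 higher in every donor. Pcna, the sliding clamp of the polymerases, changed by −0.18, and thymidine kinase Tk1 by +0.03.

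The 8 h calls depended on how the donors were treated, and donor 1 had the largest changes. The median change of the replication genes was −1.10 in donor 1, −0.42 in donor 2 and −0.34 in donor 3, and that of the mitosis genes was 0.13, 0.11 and 0.05. With donor as a block in the fit, 11 genes were called lower instead of 4 (8.63% of all genes), and the added ones were Prim1, E2f1, Mcm2, Mcm4, Mcm5, Mcm6 and Cdt1, with Mcm2 at an adjusted p of 0.00432. Leaving out donor 1 gave 8 calls, leaving out donor 2 gave 0 and leaving out donor 3 gave 1. Fitting only the groups compared gave 0 genes lower and 1 higher, Nusap1 (+0.53, adjusted p = 0.0381). In bulk RNA, fewer cells in a phase of the cycle and less of a transcript per cell cannot be told apart, here or in any later comparison.

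**Figure D1:**
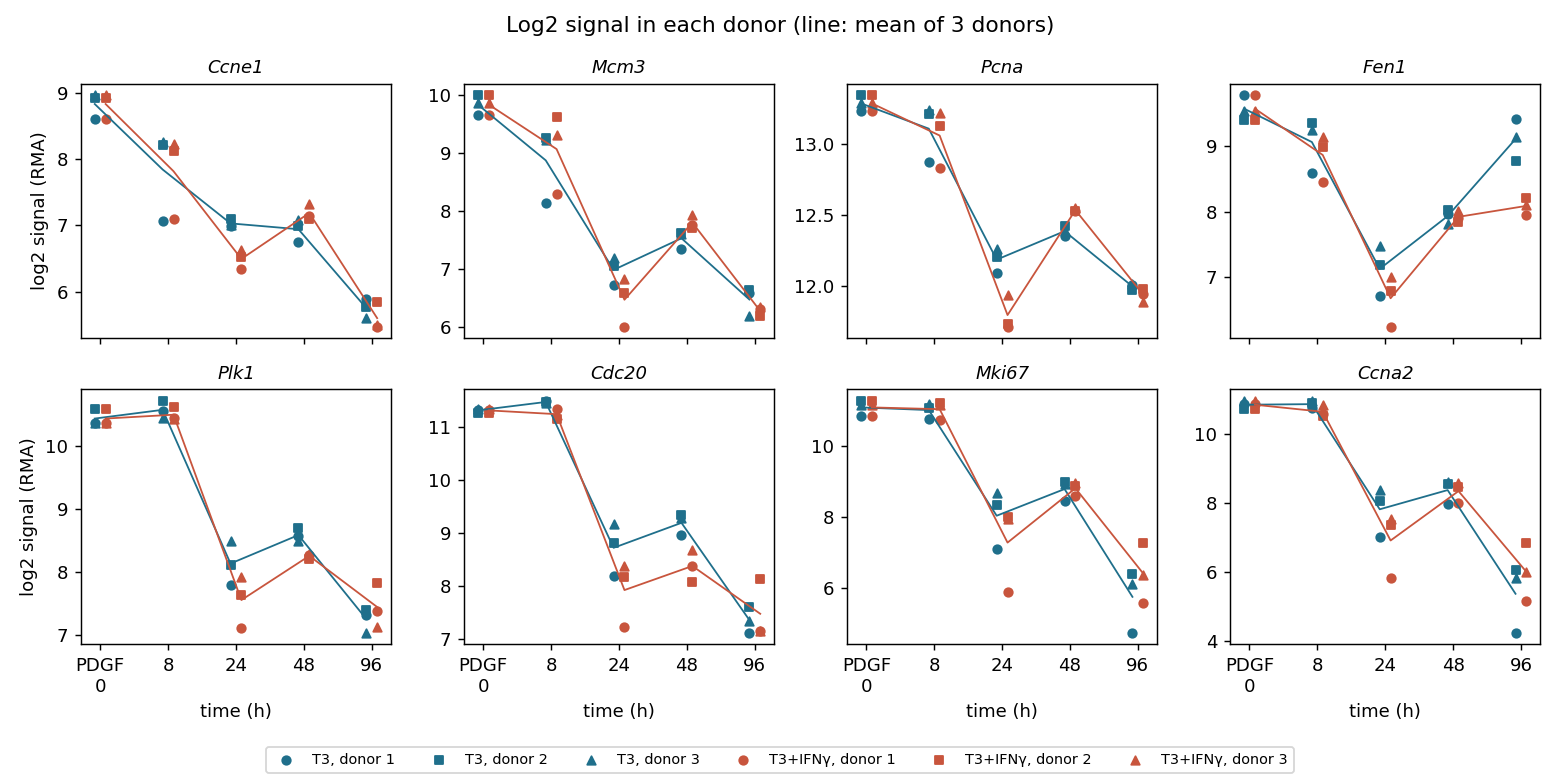
RMA log2 signal (y axis) of 8 genes in each donor at each time (x axis, hours), with T3 in blue and T3+IFNγ in red. Both courses start from the same PDGF arrays, lines join the means of 3 donors, and the y axes differ between panels. Ccne1 and Mcm3 were lower at 8 h while Plk1, Cdc20, Mki67 and Ccna2 stood near their PDGF level until after 8 h, and of the 8 Fen1 alone returned towards its PDGF level by 96 h of T3.

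By 24 h of T3 all 41 genes were lower than in PDGF in every donor, where 4536 of all 14218 genes were. All 41 were called lower, against 17.8% of all genes. The largest adjusted p among them was 9.88e-05, for Ccne2. Ki-67 (Mki67), a chromosome-coating protein used as the standard marker of cycling cells, went from 10.85, 11.28 and 11.17 in PDGF to 7.11, 8.34 and 8.68. Cyclin A2 (Ccna2) went from 10.87, 10.74 and 10.97 to 7.03, 8.06 and 8.39. In both genes donor 1 was the lowest at 24 h. The largest change from PDGF was that of Aurora B (Aurkb), the kinase of the chromosomal passenger complex, at −3.32 (adjusted p = 5.94e-08), and the smallest were Pcna at −1.10, Ccne2 at −1.15 and Ccne1 at −1.80. The median change was −2.54 for replication genes and −2.76 for mitosis genes.

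From 8 to 24 h the mitosis genes took larger steps than the replication genes. Between these times 40 of the 41 genes fell, against 12.4% of all genes, and Ccne2 changed by −0.39 (adjusted p = 0.188). The median step of the mitosis genes was −3.60, −2.79 and −2.33 in donors 1, 2 and 3, and that of the replication genes was −1.65, −2.07 and −2.02. Aurkb (−3.11) and Ccna2 (−3.05) took the largest steps, and among called genes Ccne1 (−0.81, adjusted p = 0.0221) and Pcna (−0.92) took the smallest.

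At 48 h all 41 genes were still below PDGF, against 25.7% of all genes, but their levels stood above those at 24 h. Mki67 was at 8.47, 8.99 and 8.94, and Ccna2 at 7.97, 8.56 and 8.62, each higher than the same donor at 24 h. From 24 to 48 h of T3 39 of the 41 genes had a change above 0, with a median of +0.56, and 33 were higher in all 3 donors with none lower in all 3, where 3402 of all genes were higher in every donor. Only the flap endonuclease Fen1 was called (+0.81, adjusted p = 0.0142), against 6.63% of all genes. The spindle checkpoint kinase Ttk changed by +0.92 (adjusted p = 0.142) and Cdk1 by +0.83 (adjusted p = 0.237). The median over the 41 genes was 1.01 in donor 1, 0.58 in donor 2 and 0.21 in donor 3. With the donor block 14 genes were called higher (9.19% of all genes), namely Gins1, Prim1, Fen1, Rrm1, Foxm1, Aurka, Aurkb, Melk, Bub1, Bub1b, Ttk, Birc5, Kif11 and Kif23.

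By 96 h of T3 40 of the 41 genes were lower than in PDGF, against 29.5% of all genes, and the mitosis genes had fallen furthest. Ccna2 reached 4.25, 6.05 and 5.83, a change of −5.48 or 44.7-fold (adjusted p = 6.73e-10). Mki67 reached 4.75, 6.40 and 6.12, a change of −5.34 or 40.6-fold. The checkpoint kinase Bub1 went from 10.48, 10.46 and 10.50 to 4.54, 5.67 and 5.39, or 38.8-fold. Ect2, the exchange factor that starts the cleavage furrow, was 36.8-fold lower, Cdk1 34.5-fold and Ttk 32.8-fold. At the other end Pcna was 2.45-fold lower and Ccne2 3.74-fold lower. The median change was −4.54 for mitosis genes and −3.25 for replication genes. A signal of 4 to 6 lies in the lower part of all values on these arrays, and the folds of the lowest genes there are limited by background. Markers of other cells also moved between these groups: of 12 microglia genes 0 were called lower than in PDGF at 8 and 24 h, 5 at 48 h and 10 at 96 h of T3. Of 7 neuron markers 4 were called lower at 96 h, and their median went from 7.70, 7.97 and 7.91 in donors 1, 2 and 3 to 6.05, 6.55 and 6.60. The part of other cells in the changes described here was not tested.

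From 48 to 96 h of T3 38 of the 41 genes fell, against 14.7% of all genes, with a median step of −2.48 for mitosis genes and −1.05 for replication genes. Mki67 (−3.04) and Ccna2 (−3.01) were among the largest. E2f1 changed by −0.68 (adjusted p = 0.128) and Mcm4 by −0.80 (adjusted p = 0.0613). Fen1, which trims Okazaki fragments, rose by 1.18 (adjusted p = 0.000359). It read 9.78, 9.41 and 9.54 in PDGF, 6.71, 7.18 and 7.48 at 24 h, 7.96, 8.02 and 7.81 at 48 h. By 96 h it had reached 9.41, 8.77 and 9.15. It was lowest at 24 h, and at 96 h its values overlapped those of PDGF (−0.46, adjusted p = 0.0879). In GRCr8 Fen1 lies on chromosome 1, where Tmem258 overlaps it by 267 bases. Fads1, a gene of lipid synthesis, is 2397 bases away, and Myrf, the transcription factor of myelination, is 4183 bases away. Myrf had a mean of 5.41 in PDGF and of 9.83, 10.63 and 10.63 at 24, 48 and 96 h of T3. Fads1 had means of 10.4 in PDGF and 11.1, 11.7 and 11.0 at these times, and Tmem258 of 11.2, 11.5, 11.1 and 10.9. Whether signal from a neighbour adds to the Fen1 probe set was not tested.

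**Figure D2:**
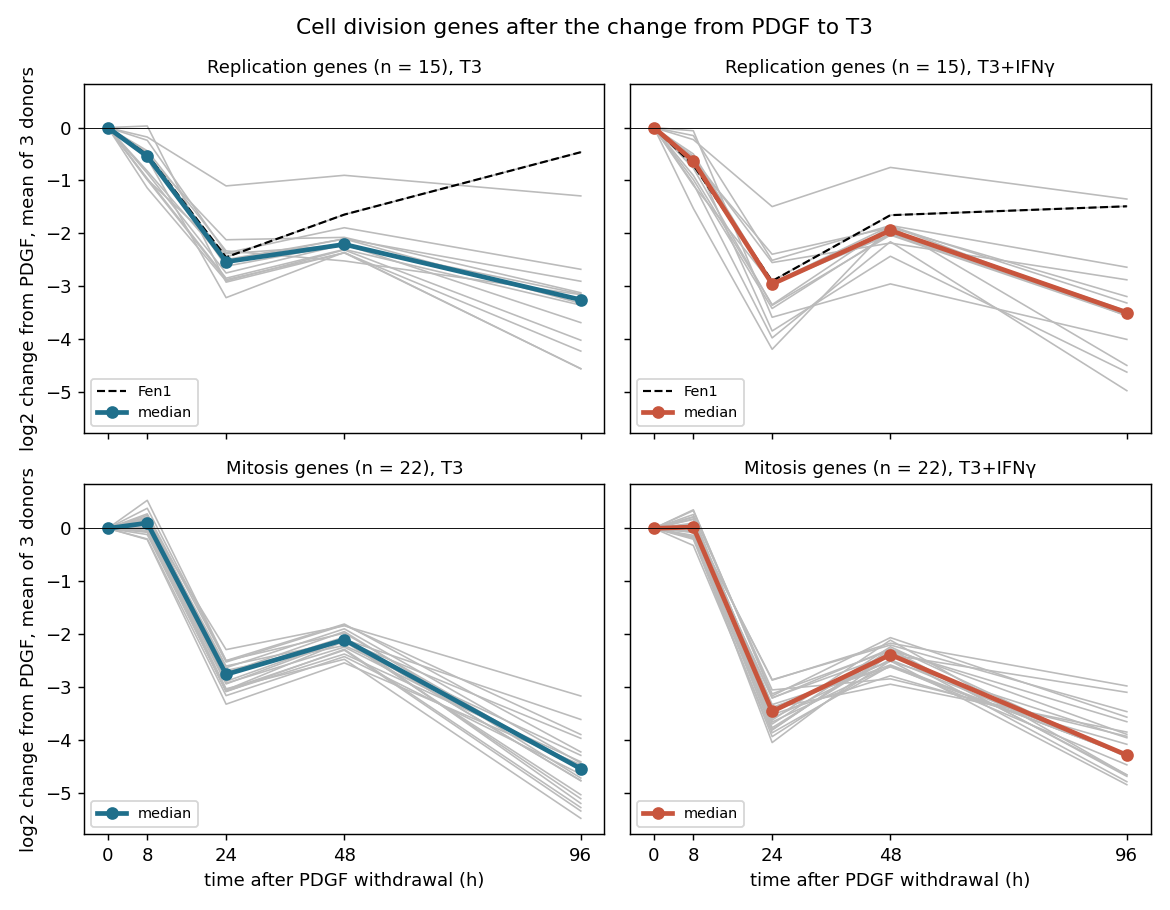
Log2 change from PDGF (y axis, mean of 3 donors) against hours after PDGF withdrawal (x axis) for the 15 replication genes and the 22 mitosis genes in T3 and in T3+IFNγ. Each grey line is a gene, the dashed line is Fen1 and the thick line is the median, which for mitosis genes in T3 ran from +0.10 at 8 h to −2.76, −2.11 and −4.54 at 24, 48 and 96 h.

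To put the genes on one scale, each gene's change was expressed as a percent of its own fall from PDGF to 96 h of T3, leaving out Fen1, and the median over a class was taken in each donor. Replication genes had covered 17.6% ± 10.8 (SD, n = 3 donors) of their fall at 8 h, with 29.9% in donor 1 and 12.3% and 10.4% in donors 2 and 3. Mitosis genes had covered −2.24% ± 0.913 at 8 h, that is, none of it. The donors of the classes did not overlap. Entry genes had covered 33.8% ± 18.8. At 24 h the shares were 75.3% ± 6.0 for replication, 60.7% ± 9.51 for mitosis and 72.9% ± 1.55 for entry genes, and at 48 h they had gone back to 65.9% ± 3.05, 45.7% ± 1.43 and 62.8% ± 2.85. These shares use the PDGF arrays in both terms and are a description.

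Single genes spread widely within each class. By their mean values E2f1 had covered 41.2%, Ccne2 38.9%, Ccne1 33.5%, Mcm2 31.6% and Mcm3 29.6% of their falls at 8 h. Each of these was highest in donor 1, and E2f1 stood at 75.1%, 28.1% and 20.5% in donors 1, 2 and 3. At the same time Mki67 had covered 1.5% and Nusap1, which bundles spindle microtubules, −12.8%. At 24 h E2f1 had covered 96.1% and Rrm1, the large subunit of ribonucleotide reductase, 88.4%, whereas Mki67 had covered 56.9% and Ect2 52.9%. At 48 h E2f1 stood at 72.9%, Mcm3 at 69.0%, Mki67 at 43.4% and Ect2 at 40.1%. Ccne1 and Ccne2 had covered 58.5% and 61.2% at 24 h, less of their falls than E2f1 although all 3 open S phase.

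**Figure D3:**
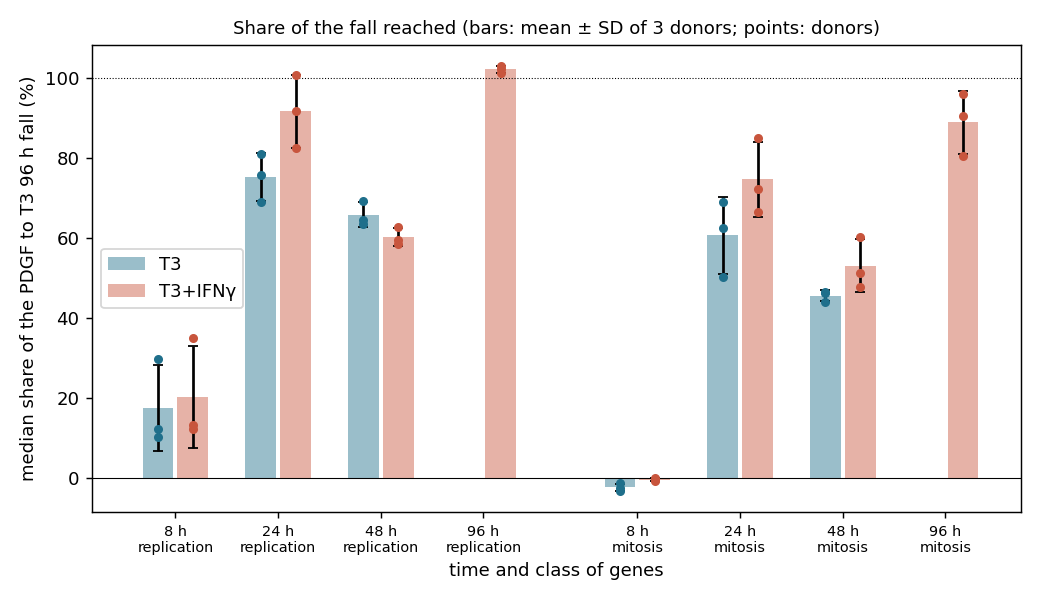
Median share of each gene's fall from PDGF to 96 h of T3 (y axis, percent) at each time (x axis) for replication genes (14, without Fen1) and mitosis genes (22). Bars are the mean ± SD of 3 donors, points are donors, T3 is blue and T3+IFNγ red, and the dotted line is the T3 96 h level, where T3 has no bar. At 8 h of T3 replication genes had reached 17.6% and mitosis genes −2.24%.

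Of the 41 genes 10 had more than 1 probe set, and a few of these did not move alike. The dimmer set of Ccne2 changed by −0.02 at 8 h and was higher by 0.53 at 24 h (limma, adjusted over probe sets, 0.000438). All Ccne2 values given above and below, those with IFNγ included, therefore hold for its brighter set alone. The dimmer set of Kif23, a motor of the central spindle, changed by −0.56 at 24 h and −0.49 at 96 h. The 5 sets of Cdc20 changed by −0.57 to −2.80 at 24 h, and the other Cdc20 values given here are those of its brightest set. The other sets of Tk1 changed by −0.30 and −0.56 at 8 h, where the brightest changed by +0.03.

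With IFNγ present, replication and entry genes were again the ones called at 8 h. At 8 h of T3+IFNγ 9 of the 41 genes were lower than in PDGF, against 9.66% of all genes: Ccne1, Ccne2, E2f1, Cdt1, Mcm2, Mcm4, Mcm5, Mcm7 and Fen1. Cdt1 changed by −1.53 (adjusted p = 0.0152) and E2f1 by −1.33 (adjusted p = 0.00483), and no mitosis gene was called. Leaving out donor 1, 2 or 3 gave 10, 1 and 3 genes, and fitting only the groups compared gave 2. All 41 genes were lower than in PDGF at 24 h (21.0% of all genes), at 48 h (25.9%) and at 96 h (27.5%). Set directly against T3 at 8 h, IFNγ gave no called gene among the 41 in either direction, against 1.58% of all genes lower and 3.69% higher, and none had an unadjusted p below 0.05 in limma. With donor 1 left out 1 gene was called lower at 8 h. The median difference was −0.08.

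At 24 h all 41 genes were lower in T3+IFNγ than in T3 in all 3 donors, where 4587 of all 14218 genes were. The median difference was −0.59, and the donor medians were −0.68, −0.42 and −0.68. Of the 41 genes 3 were called lower, against 6.35% of all genes, and none was called higher, against 5.96%. Ccne2 read 8.78, 8.37 and 8.46 in T3 and 7.69, 7.78 and 7.54 in T3+IFNγ (−0.87, SE 0.20, adjusted p = 0.00565). Pcna read 12.09, 12.20 and 12.26 against 11.71, 11.73 and 11.94 (−0.39, SE 0.10, adjusted p = 0.00885), and Plk1 read 7.80, 8.11 and 8.49 against 7.12, 7.64 and 7.92 (−0.58, SE 0.18, adjusted p = 0.0401). Ccne2 and Pcna did not overlap between the treatments and Plk1 did, its donors spanning a wider range than the difference.

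Larger differences at 24 h in genes with a wide spread between donors did not pass. Cdt1 read 6.89, 7.35 and 7.36 in T3 and 5.05, 6.27 and 6.40 in T3+IFNγ (−1.29, adjusted p = 0.0532), without overlap. Mcm6 differed by −1.10 (adjusted p = 0.134) and Ttk by −0.99. With the donor block 12 genes were called lower (9.73% of all genes), which were Prim1, Pcna, Tk1, Ccna2, Plk1, Melk, Ccne2, Mcm4, Mcm6, Cdt1, Ttk and Cdc20, and the adjusted p of Cdt1 was then 0.00505. Without donor 1 there were 14 calls, and without donor 2 or without donor 3 there were 0. As shares of the T3 fall, replication genes stood at 91.7% ± 9.12 and mitosis genes at 74.7% ± 9.41 in T3+IFNγ at 24 h.

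Markers of microglia moved with IFNγ in the same arrays. Their median over 12 genes was 5.78, 5.89 and 6.73 in donors 1, 2 and 3 at 24 h of T3 and 7.19, 6.82 and 7.97 at 24 h of T3+IFNγ. At 96 h it was 5.39, 4.96 and 5.37 against 7.11, 6.34 and 7.53. Of the 12 markers 1, 4, 5 and 6 were called higher in T3+IFNγ at 8, 24, 48 and 96 h, among them P2ry12 and the complement genes C1qa, C1qb and C1qc from 24 h, where 3.69%, 5.96%, 7.57% and 7.91% of all genes were. At 96 h of T3 all 12 lay below the median of all values, as did 4 of them at 96 h of T3+IFNγ. The part of other cells in the differences between T3 and T3+IFNγ was not tested.

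At 48 h the classes differed from T3 in opposite directions, though hardly any gene passed the test. The replication genes had a median difference of +0.21, with 12 of 15 above 0, and donor medians of 0.27, 0.08 and 0.21. The mitosis genes had a median of −0.27, with 20 of 22 below 0, and donor medians of −0.17, −0.51 and −0.14. Cdc20 was the only gene called lower, against 8.53% of all genes, and none was called higher, against 7.57%. It read 8.96, 9.34 and 9.27 in T3 and 8.38, 8.07 and 8.68 in T3+IFNγ, without overlap (−0.82, SE 0.27, adjusted p = 0.0421). Cyclin B2 (Ccnb2) differed by −0.86 (adjusted p = 0.104), and it and Tk1 (−0.59) were called with the donor block, which gave 3 genes. Leaving out donor 1 gave 3 genes lower, and leaving out donor 2 or donor 3 gave 0.

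From 24 to 48 h 25 genes were called higher in T3+IFNγ and 1 in T3, while 39 and 33 were higher in every donor. The test of the difference between these steps called none of the 41 without the donor block and 2 with it (given with the interactions). In T3+IFNγ all 41 genes had a change above 0 with a median of +1.01, and 39 were higher in every donor, where 2769 of all 14218 genes were. Of the 41 genes 25 were called, against 5.44% of all genes. The called genes included 11 of the 15 replication genes and 13 of the 22 mitosis genes. Cdt1 went from 5.05, 6.27 and 6.40 to 8.35, 8.14 and 8.21, a rise of 2.33 (SE 0.43, adjusted p = 0.000761) or 5.02-fold. Mcm6 rose by 1.82 (adjusted p = 0.0091) and Ttk by 1.67 (adjusted p = 0.00932), while the smallest changes were those of Ccnb2 (+0.21), the thymidylate synthase gene Tyms (+0.37) and Cdc20 (+0.46). Donor 1 had a median step of 1.66, donor 2 of 0.67 and donor 3 of 0.72. The donor block gave 37 calls, against 7.54% of all genes, and leaving out donor 1, 2 or 3 gave 27, 5 and 7. This step and the difference from T3 at 24 h share the T3+IFNγ arrays of 24 h, so they are not separate evidence.

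The step from 8 to 24 h in T3+IFNγ was a fall in all 41 genes, against 12.9% of all genes, and that from 48 to 96 h was a fall in 40, against 10.8%. In the last step Mcm6 fell by 2.82 and Cdt1 by 2.63, more than any mitosis gene. The median was −1.50 for replication genes and −1.68 for mitosis genes, with donors at −2.13, −0.84 and −1.97 for the latter. Leaving out donor 3 left 22 of the 40 calls. Fen1 changed by +0.17 (adjusted p = 0.685).

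At 96 h the mean of most mitosis genes was higher in T3+IFNγ than in T3, though none passed the test. Of the 22 mitosis genes 21 had a difference above 0, with a median of +0.47 and donor medians of 0.45, 0.83 and 0.18. In all 3 donors 13 of them were higher and none was lower, where 3620 of all 14218 genes were higher and 4107 lower. None of the 41 was called higher, against 7.91% of all genes, and 3 had an unadjusted p below 0.05. Bub1 read 4.54, 5.67 and 5.39 in T3 and 5.62, 6.997 and 5.94 in T3+IFNγ, values that overlap although each donor was higher (+0.98, adjusted p = 0.107, or 0.017 with the donor block). Ect2 differed by +0.90 (adjusted p = 0.245) and cyclin B1 (Ccnb1) by +0.81 (adjusted p = 0.143). Mki67 read 5.59, 7.26 and 6.38 against 4.75, 6.40 and 6.12. As a share of the T3 fall, mitosis genes had reached 89.0% ± 7.82, replication genes 102% ± 0.842 and entry genes 112% ± 6.91.

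Called lower at 96 h were 2 of the 41 genes, against 5.63% of all genes. Fen1 read 9.41, 8.77 and 9.15 in T3 and 7.95, 8.21 and 8.10 in T3+IFNγ (−1.02, adjusted p = 0.00256). Its neighbour Myrf had means of 10.6 in T3 and 9.97 in T3+IFNγ, and Fads1 of 11.0 in both. Ccne2 read 7.58, 7.82 and 7.95 against 6.69, 7.02 and 6.87 (−0.92, adjusted p = 0.00283). Neither gene overlapped between the treatments. The donor block added Mcm4 (−0.66, adjusted p = 0.191 without it and 0.0208 with it). Leaving out donor 1 gave 5 genes lower and leaving out donor 2 or 3 gave 1.

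**Figure D4:**
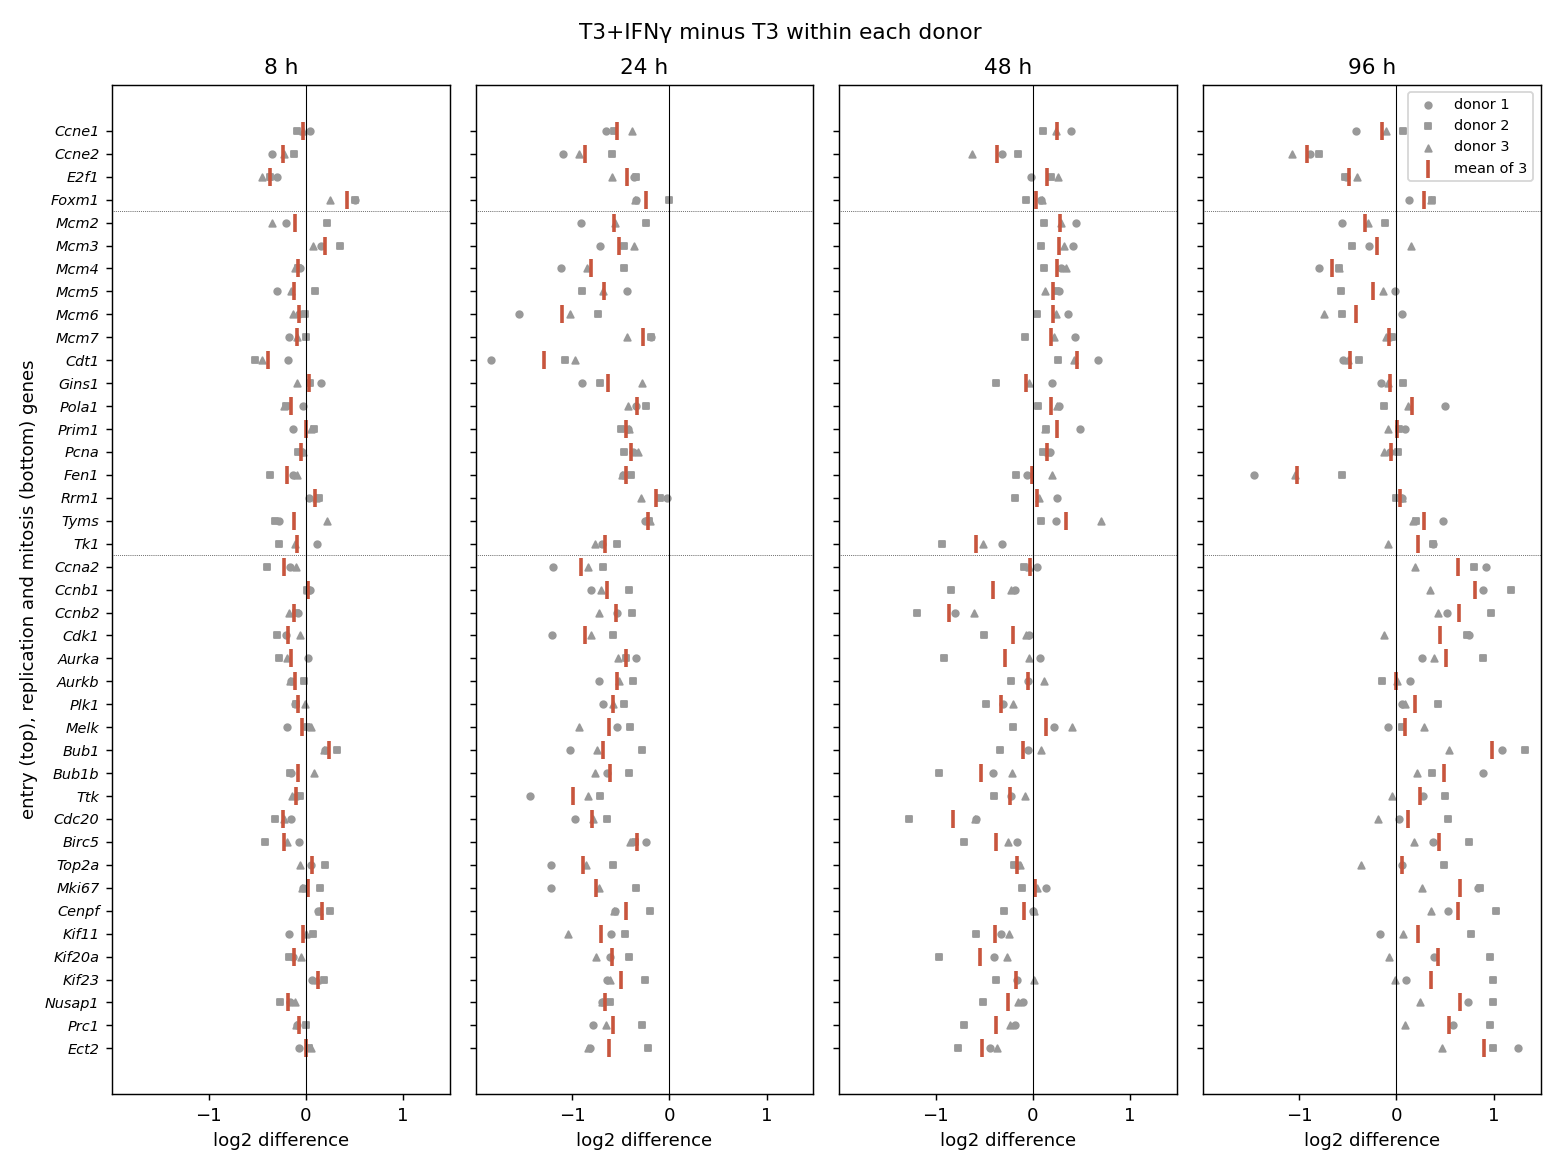
Difference in log2 signal between T3+IFNγ and T3 (x axis) within each donor (grey symbols) and on average (red bars) for the 41 genes (rows), with entry genes at the top, then replication and then mitosis genes. At 24 h all 41 genes lay below 0 in every donor, and at 96 h 21 of the 22 mitosis genes had a mean above 0.

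Whether the effect of IFNγ itself differed between times was tested as an interaction, and no gene of the 41 was called in any. For the step from 8 to 24 h all 41 interactions were below 0 (median −0.57; 0.668% of all genes called). For the step from 24 to 48 h 38 were above 0 (median +0.50; 0.506% of all genes called), with Cdt1 at +1.74 (adjusted p = 0.345). With the donor block Prim1 (+0.69, adjusted p = 0.047) and Pcna (+0.54, adjusted p = 0.0254) were called, where 1.12% of all genes were. For the step from 48 to 96 h 21 of 22 mitosis genes were above 0 (2.81% of all genes called). With the block, where 5.03% were called, Ccnb2 (+1.503, adjusted p = 0.0334) and Fen1 (−1.01, adjusted p = 0.0459) passed. A comparison added after the data had been seen set the IFNγ difference at 96 h against that at 24 h. All 22 mitosis genes were above 0 there with a median of +1.09, none passed (2.57% of all genes did), and with the block, where 4.90% did, Bub1 (+1.66, adjusted p = 0.0175), Bub1b, Ccna2 and Ccnb1 passed.

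Genes of the same pathways outside the 41 were read from wider lists. Of 32 other replication genes 7 had fallen at 8 h of T3, and all 32 at 24, 48 and 96 h, against 5.37%, 17.8%, 25.7% and 29.5% of all genes lower at the 4 times. At 8 h these included the origin recognition subunits Orc1 (−1.46, adjusted p = 0.000858) and Orc6 (−0.67), the maintenance methyltransferase Dnmt1 (−0.77) and the fork protein Timeless (−0.74). Uhrf1, the partner of Dnmt1 that reads hemimethylated DNA, fell by 3.51 at 24 h and by 5.47 at 96 h. Of 50 other mitosis genes none had fallen at 8 h, 49 had at 24 and 48 h and 47 at 96 h, when Cks2 was at −5.21, Aspm at −5.12 and Ube2c at −4.95. The lists had median changes of −0.53 and 0.06 at 8 h for replication and mitosis. From 24 to 48 h of T3 6 of the other replication genes and 8 of the other mitosis genes were called higher, against 6.63% of all genes. In T3+IFNγ 21 and 28 were called higher, against 5.44%.

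Against T3, IFNγ lowered some genes of these lists at 24 h. At that time 6 of the 32 replication genes were lower than in T3, among them Pole2 (−1.05), Dut (−0.74) and Gins4 (−0.71), and 7 of the 50 mitosis genes were, among them Depdc1 (−1.14) and Ncaph (−0.93), against 6.35% of all genes. At 96 h 7.91% of all genes were called higher and 5.63% lower, and those named next are single genes and not a count of the lists. Dlgap5, a spindle protein, was higher (+1.16, adjusted p = 0.00449), as was the kinetochore motor Cenpe (+0.80, adjusted p = 0.033). Plk4, the kinase of centriole duplication, went the other way at 96 h, with −2.15 (adjusted p = 7.2e-05) and donor differences of −2.87, −1.63 and −1.95. Its mean was 10.7 in PDGF, 7.68 at 24 h and 9.02 at 96 h of T3, and 6.67 and 6.87 at these times with IFNγ.

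Several regulators of these genes had also changed at 8 h. Of 17 genes of the E2F family, the pocket proteins and MuvB, 5 were lower and 2 higher at 8 h of T3, against 5.37% and 7.31% of all genes. E2f8 (−0.99, adjusted p = 0.0185) and Mybl2 (−0.87) were among those that fell, and the pocket protein gene Rbl2 rose by 0.59 at 8 h and stood 0.81, 0.39 and 0.56 above PDGF at the later times. Of 17 genes of G1 control 4 were lower and 3 higher at 8 h, against the same shares. The D cyclins, which link mitogens to the cycle, had fallen at 8 h, by 1.10 for Ccnd1 and 1.49 for Ccnd2, and by 2.62 and 2.90 at 96 h. Cdkn1c, the inhibitor p57, rose by 1.31 at 8 h, 3.48 at 24 h, 3.75 at 48 h and 2.76 at 96 h. Against T3, IFNγ gave Cdkn1a, the inhibitor p21, a difference of +0.69 at 8 h and −0.63 at 96 h, Cdkn1c one of −1.06 at 96 h, Ccnd1 one of +0.98 at 48 h and E2f2 one of +0.94 at 24 h, all called.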

How the data were processed

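RNA of rat OPC cultures was hybridised to Affymetrix arrays by the authors as biotin-labelled cRNA, 1 array for each of 27 samples. The deposited values are log2 signals, and the submitters' processing notes name RMA and limma without versions. The table holds 31099 probe sets, of which 20832 carry 1 gene symbol in the platform annotation, 436 several and 9831 none. Arrays give no read depth, so precision rests on 3 donors a group.

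Each gene was read from its brightest single-symbol probe set, by the mean over all arrays, which gave 14218 genes, 4526 of them with more than 1 set. A model with 1 mean per group was fitted to all 27 arrays in limma 3.58.1 (R 4.3.3). It used empirical Bayes variances and Benjamini-Hochberg adjustment over 14218 genes in each comparison. The code was run on simulated data drawn without a donor effect, which cannot show how the fit behaves where donors differ. Shares of the fall and promoter motifs were computed in Python 3.11.15 with pandas 2.3.3 and NumPy 2.4.6, and plots drawn with matplotlib 3.10.9. RefSeq promoters of assembly GRCr8 were matched by symbol. No pair of arrays was identical (highest correlation 0.997).

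The labels name the donor, so arrays of a donor can be paired, which the fit reported here does not do. Deviations from the group means correlated with a median of 0.31 within donors and −0.17 between donors, and 27 of 27 arrays correlated best with their own donor. The fit without the donor block is the one reported, and the block an alternative, beside an at least 2-fold change, arrays centred on their medians, the mean of all probe sets, genes above the median level, only the groups compared, and each donor left out. The members and gene lists were chosen with earlier results of these data known. Any member could be named, and of each other list up to 4 called genes with the largest change that moved alike in all 3 donors, and called genes that went against their list. Arrays of IFNγ alone, which the design text mentions, were not analysed here.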

Additional observations from a re-analysis of the deposited data

Results flagged for a closer look

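Among the 41 genes and the wider lists of 32, 50, 17 and 17 genes, 7 had an effect of IFNγ that differed between times. The test was of the difference itself (limma, adjusted over all genes). Over all genes 2.81% were called in the step from 48 to 96 h and 2.57% in the comparison of 96 h with 24 h. None of the 7 was among the 41 genes. For the step from 48 to 96 h, T3+IFNγ minus T3, the difference was −2.1 for Plk4 (adjusted p = 0.0149), 1.41 for Dlgap5 (adjusted p = 0.0468) and 0.60 for Cdkn2d, the CDK inhibitor p19 (adjusted p = 0.00989). The mean of Plk4 went from 8.57 to 9.02 in T3 over this step and from 8.52 to 6.87 in T3+IFNγ, while that of Dlgap5 went from 7.75 to 5.95 and from 7.50 to 7.11. The inhibitors Cdkn1a and Cdkn1b had differences of −1.08 (adjusted p = 0.0281) and −0.67 (adjusted p = 0.0194) in that step.

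For the IFNγ difference at 96 h minus that at 24 h, a comparison added after the data had been seen, the value was 1.25 for Zwilch, a kinetochore protein (adjusted p = 0.0104), 1.51 for Dlgap5 (adjusted p = 0.0322), 1.10 for Cdk2 (adjusted p = 0.00535), −1.03 for Cdkn1a (adjusted p = 0.0392) and 0.57 for Cdkn2d (adjusted p = 0.0144). Of 9 alternative settings, Cdk2 and Cdkn2d passed in 7 for that comparison, Dlgap5 and Zwilch in 6 and Cdkn1a in 4. For the step from 48 to 96 h Plk4, Dlgap5 and Cdkn2d passed in 7, Cdkn1a in 6 and Cdkn1b in 5.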

How the results depend on the processing

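Over 36 counts of the 41 genes, 14 shares of the fall and 21 single-gene calls, no called value changed sign under any alternative. The 24, 48 and 96 h counts of genes below PDGF stayed within 1.5 times their values. With the donor replicate block, which pairs the arrays of a donor, the counts that moved were 11 (T3 8 h lower), 12, 3 and 1 (T3+IFNγ against T3: 24 h lower, 48 h lower and 96 h higher), 14 (T3 24 to 48 h higher), 2 (step 24 to 48 h higher), 1 and 1 (step 48 to 96 h lower and higher) and 4 (IFNγ change at 96 h against 24 h), and all 21 single genes kept their calls. With the block and without donor 1, chosen after seeing the data, the corresponding counts were 9, 16, 4, 4, 8, 4, 3, 3 and 7, with 1 at 8 h, 6 lower at 96 h and 1 in the step 8 to 24 h. With only the groups compared in the fit they were 0 lower (T3 8 h, where Nusap1 was called higher), 2 (T3+IFNγ 8 h), 4 lower and 1 higher (T3+IFNγ against T3, 48 h), 4 (96 h lower), 3 and 15 (24 to 48 h higher in T3 and T3+IFNγ) and 3 (step 48 to 96 h lower). Asking for 2-fold left 0, 4, 0, 0, 1 and 0 for T3 8 h, T3+IFNγ 8 h, T3+IFNγ against T3 at 24, 48 and 96 h lower, and T3 24 to 48 h. Genes above the median level gave 7, 5 and 3 for T3 8 h, T3+IFNγ against T3 at 24 h, and T3 24 to 48 h, where the mean of probe sets gave 2. Centring gave 103% for the replication share at 96 h of T3+IFNγ (102%) and 0.250% for the mitosis share at 8 h of T3+IFNγ (−0.269%), a value near 0 whose sign changed and which the mean of probe sets put at −0.680%.

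Leaving out 1 donor gave 0 to 8 genes for T3 8 h, 1 to 10 for T3+IFNγ 8 h, 0 to 1, 0 to 14, 0 to 3 and 1 to 5 lower for T3+IFNγ against T3 at 8, 24, 48 and 96 h and 0 to 1 higher at 96 h, 0 to 6 and 5 to 27 for 24 to 48 h in T3 and T3+IFNγ, 22 to 39 for 48 to 96 h in T3+IFNγ, 0 to 1 lower for the step 8 to 24 h, 0 to 4 higher for 24 to 48 h, 0 to 3 lower and 0 to 1 higher for 48 to 96 h, and 0 to 3 for the IFNγ change. These fits have fewer arrays, and the cause of the other changes was not tested. Signals near background limit the 96 h folds.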
